A study of Mus musculus with 4 samples.

Results

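Expression of Wnt ligands, of the Wnt-responsive transcription factor Lef1 and of secreted Wnt antagonists was examined in mouse molar tooth germs cultured with or without the dioxin TCDD. The group was defined by name as 10 genes, Wnt4, Wnt5a, Wnt6, Wnt10a, Wnt10b, Wnt11, Lef1, Dkk1, Sfrp1 and Sfrp2, and all probe sets annotated to exactly 1 of these symbols were taken. This gave 13 probe sets of the 12488 on the array, with 3 for Wnt10b, 2 for Lef1 and 1 for each of the other genes. Mandibular molar tooth regions of NMRI mouse embryos at embryonic day 14 were cultured for 24 h in medium with serum. The control group received DMSO at 0.65%, and the exposed group received 1 µM TCDD (2,3,7,8-tetrachlorodibenzo-p-dioxin), a ligand of the aryl hydrocarbon receptor that had itself been dissolved in DMSO. Each group had 2 arrays, and each array carried RNA pooled from about 60 explants of 3 experiments, so the spread between arrays is that between pools. The labels name no genetic change in either group and give no DMSO percentage for the TCDD cultures. Of the 4 culture labels, that of DMSO replicate 2 alone lists ascorbic acid in the medium. Both replicate 1 arrays were made from 11 µg of RNA, the replicate 2 array of DMSO from 7 µg and that of TCDD from 8 µg.

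Wnt proteins are secreted lipid-modified ligands that bind Frizzled receptors on nearby cells. In the canonical pathway, Frizzled and the co-receptors Lrp5 and Lrp6 stabilise beta-catenin, which enters the nucleus and activates genes together with Lef1 and the related Tcf factors. Secreted frizzled-related proteins such as Sfrp1 and Sfrp2 can bind Wnt ligands outside the cell, and Dkk1 blocks the co-receptors. The tooth depends on this pathway: molars of mice without Lef1 stop growing at the bud stage, forced Dkk1 in the oral epithelium also arrests teeth early, and mutations of WNT10A cause missing teeth in people. In the early tooth Wnt4, Wnt6, Wnt10a and Wnt10b are known mainly from the epithelium, and Wnt5a and Sfrp2 from the mesenchyme.

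Values are MAS5 signals, a linear measure of hybridisation that the authors scaled to a target of 100 on each array. The median signal of an array lay between 39.9 and 47.0. The files hold no detection calls, so it is not known which signals were above background, and precision is limited by having 4 arrays. The explants held the tissues named in the labels as far as the markers show. Krt17 and Dsp, epithelial genes, had signals of at least 1209.5 and 936.4, and Col1a2 and Msx1, mesenchymal genes, had at least 1189.5 and 540.6. Some defining markers were dim, with Krt5, Krt14 and Krt15 at 10.8 or less and Vim between 17.2 and 30.0.

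No member passed the test between TCDD and DMSO. Dkk1 and Sfrp2 had lower signals on both TCDD arrays than on either DMSO array, and Wnt4 had higher ones. The other tested members, the antagonist Sfrp1, the ligands Wnt5a and Wnt10a, and Lef1, overlapped between the groups. The test was limma on log2(signal + 16) and covered the 5783 probe sets whose 4-array mean reached a signal of 50, with p-values adjusted over all of them by the Benjamini-Hochberg method and a threshold of 0.05. The filter kept 8 member probe sets of 7 genes, and 0 of the 8 passed, while 4 of all 5783 did (0.0692%). At an unadjusted limma p under 0.05 there was 1 member, Dkk1, where 2.59% of all probe sets tested reached that level. The groups did not overlap in 3 of the 8 member probe sets, 1 higher and 2 lower, beside 29.8% of all probe sets (15.3% higher and 14.6% lower). The median log2 difference of the 8 was -0.04, beside 0.01 for all probe sets tested. Wnt6, Wnt11 and the 3 probe sets of Wnt10b lay below the filter and are described by their signals.

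**Figure D1:**
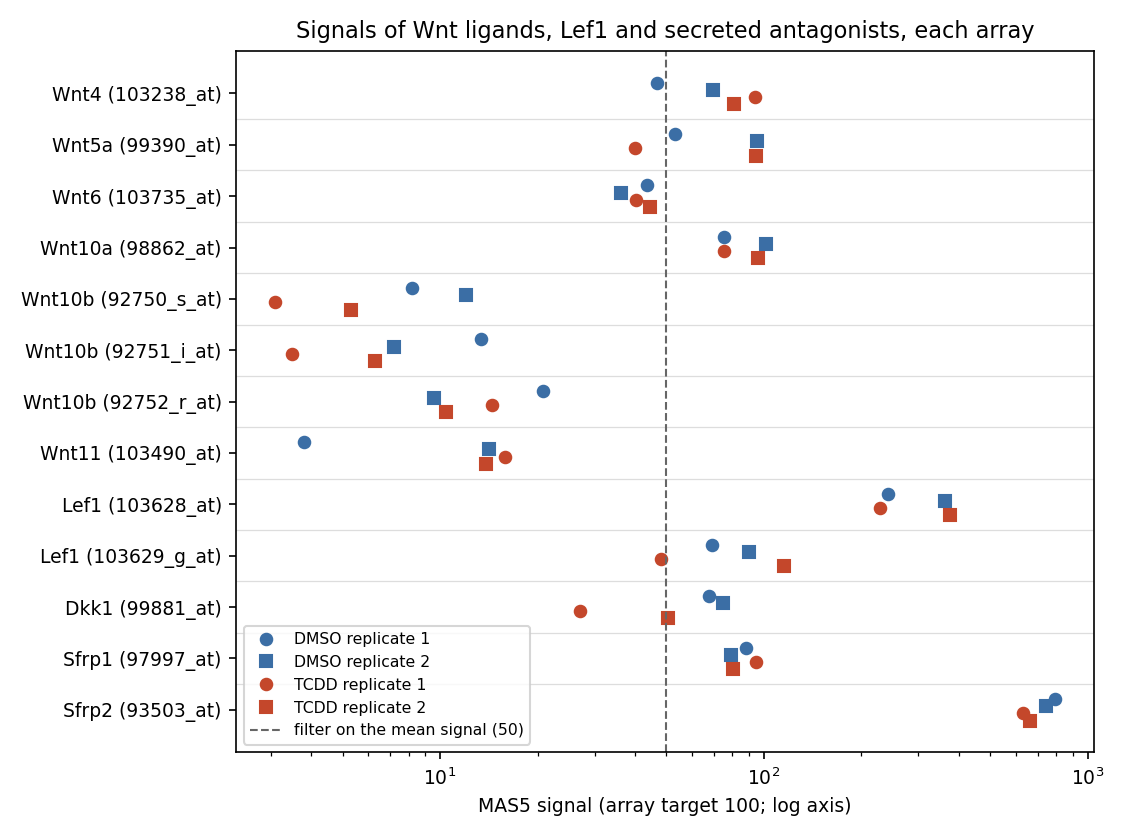
MAS5 signal (log axis) of each of the 13 member probe sets on each of the 4 arrays, DMSO in blue and TCDD in red, replicate 1 as circles and replicate 2 as squares, with a dashed line at the filter of 50. Both TCDD signals lie below both DMSO signals for Dkk1 (27.0 and 50.5 against 67.6 and 75.0), and for Wnt5a and Lef1 the squares lie above the circles in both groups.

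The promoters of the 3 tested genes whose groups did not overlap are shown so that the motifs of the receptor and of the Wnt pathway can be seen in them. Each is the stretch of 250 bases before the RefSeq transcription start on assembly GRCm38.p6, in the direction of the gene. Capitals mark GCGTG, the core sequence bound by the aryl hydrocarbon receptor and its partner, and CTTTGNN with each N either A or T, which fits the core bound by Lef1 and Tcf factors, on either strand. Dkk1 lies at chr19:30549497-30549746 on the minus strand, Wnt4 at chr4:137277385-137277634 and Sfrp2 at chr3:83766071-83766320, both on the plus strand.
Dkk1: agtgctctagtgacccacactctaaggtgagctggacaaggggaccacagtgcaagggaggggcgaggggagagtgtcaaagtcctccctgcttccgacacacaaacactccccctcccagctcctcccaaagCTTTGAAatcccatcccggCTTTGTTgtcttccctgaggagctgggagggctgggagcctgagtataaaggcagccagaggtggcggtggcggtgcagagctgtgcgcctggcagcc
Wnt4: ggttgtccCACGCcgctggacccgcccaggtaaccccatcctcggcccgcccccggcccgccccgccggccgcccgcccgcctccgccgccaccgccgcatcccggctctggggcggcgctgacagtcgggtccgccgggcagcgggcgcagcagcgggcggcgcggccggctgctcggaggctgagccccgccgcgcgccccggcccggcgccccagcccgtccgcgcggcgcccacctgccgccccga
Sfrp2: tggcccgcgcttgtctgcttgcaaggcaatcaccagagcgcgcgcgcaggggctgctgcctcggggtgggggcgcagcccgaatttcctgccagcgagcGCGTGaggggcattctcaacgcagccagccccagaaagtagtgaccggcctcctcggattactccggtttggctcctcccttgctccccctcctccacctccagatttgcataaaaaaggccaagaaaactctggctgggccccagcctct

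The Dkk1 stretch held 2 Lef1/Tcf matches and no GCGTG. The first match spans bases -117 to -111 and the second -98 to -92, where -1 is the last base before the start. The Wnt4 stretch held 1 GCGTG match on the opposite strand at -242 to -238, and the Sfrp2 stretch held 1 at -151 to -147. Base composition differed as well, with 85.2% G and C and 44 CG dinucleotides in Wnt4, 63.6% and 16 in Sfrp2 and 60.8% and 6 in Dkk1. RefSeq windows of 300 bases (250 before and 50 after the start) were found for 7 of the 10 members, in 11 windows because Lef1 has 4 and Wnt11 has 2. GCGTG was present in 5 of the 11 windows, 1 each of Wnt4, Wnt6, Wnt10b, Wnt11 and Sfrp2, beside 32.4% of all 32851 windows. A Lef1/Tcf match was present in 3, 1 each of Wnt11, Lef1 and Dkk1, beside 16.9% of all windows. A match describes these letters only, and binding was not measured.

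Among the ligands, Wnt4 had the highest difference. Wnt4 (103238_at), a ligand best known from kidney and female reproductive tract development, read 46.8 and 69.7 on the DMSO arrays against 94.0 and 80.7 on the TCDD arrays. Both TCDD signals were above both DMSO signals, with DMSO replicate 1 the lowest of the 4. The mean signal was 58.3 ± 16.2 for DMSO and 87.4 ± 9.41 for TCDD (SD over 2 arrays). On the log2 scale Wnt4 was 0.49 ± 0.24 (SE) higher in TCDD, with a 95% interval of -0.04 to 1.02 and a limma adjusted p of 0.997. It was 0.81 between the replicate 1 arrays and 0.17 between the replicate 2 arrays. Without DMSO replicate 1 the log2 difference of Wnt4 was 0.27. With an offset of 64 it was 0.31.

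Epithelial markers were also higher in TCDD as summed signals, at 3257.5 and 4396.4 in DMSO and 4575.2 and 4886.2 in TCDD over the 12 genes of the list on the array. Of the 8 epithelial genes tested 7 were higher, with a median log2 difference of 0.28, and 0 passed limma's adjusted p. Perp was the 1 with an unadjusted limma p under 0.05, beside 2.59% of all probe sets tested. The groups did not overlap in 2 higher and 1 lower, beside 15.3% and 14.6% of all probe sets tested. Cdh1, the E-cadherin of epithelial cells, went the other way at 170.3 and 141.1 with DMSO against 101.2 and 120.5 with TCDD, without overlap, and differed by -0.44 ± 0.21 (SE, log2). Krt17 and Dsp made up most of the summed signal. The mesenchymal list summed to 4606.0 and 5334.2 with DMSO and to 5222.2 and 5606.2 with TCDD, with 8 of 12 higher and a median of 0.10. In such bulk RNA a change in the number of cells of a type and a change in RNA per cell cannot be told apart. The part of the epithelial share in the Wnt4 values was not tested.

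Wnt5a and Wnt10a overlapped between the groups. Wnt5a (99390_at), a ligand that acts mostly outside the canonical pathway and is needed for outgrowth of limb and face, read 53.3 and 95.4 with DMSO and 40.1 and 94.3 with TCDD. The replicate 2 arrays were the high ones in both groups. Its log2 difference was -0.16 ± 0.34 (SE), with a 95% interval of -0.90 to 0.58 and a limma adjusted p of 0.997. Wnt10a (98862_at), a canonical ligand of the dental epithelium, read 75.2 and 101.6 with DMSO and 75.1 and 95.7 with TCDD. Again the replicate 2 arrays were higher in both groups. Its log2 difference was -0.04 ± 0.23 (SE) with a 95% interval of -0.55 to 0.48.

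The remaining ligands were dim on all arrays. Wnt6 (103735_at), an epithelial ligand, read 43.7 and 36.1 with DMSO and 40.3 and 44.6 with TCDD, which overlap. Wnt11 (103490_at), known for its part in cell movement and kidney branching, read 3.8 and 14.2 with DMSO and 15.9 and 13.9 with TCDD, so DMSO replicate 1 stood below the other 3 arrays. Wnt10b, the close relative of Wnt10a, had 3 probe sets with signals no higher than 20.8. At 92750_s_at the Wnt10b signals were 8.2 and 12.0 with DMSO against 3.1 and 5.3 with TCDD. At 92751_i_at they were 13.4 and 7.2 against 3.5 and 6.3. Both of these Wnt10b probe sets were lower on both TCDD arrays, while at 92752_r_at the groups overlapped, with 20.8 and 9.6 against 14.5 and 10.4. All of these Wnt10b values lie below the offset of 16 apart from 1, and 11 of the 12 had been stored as calendar days and were turned back into signals. In the fit without the filter the log2 differences were 0.07 ± 0.27 for Wnt6, 0.34 ± 0.24 for Wnt11 and -0.37 ± 0.16, -0.32 ± 0.18 and -0.11 ± 0.25 (SE) for Wnt10b, with limma adjusted p-values of 0.979 or more. Without DMSO replicate 1 the Wnt11 difference was 0.032, and without DMSO replicate 2 it was 0.64. The Wnt10b difference at 92751_i_at was -0.15 and -0.50 without these arrays in turn. Signals of different probe sets cannot be ranked as levels.

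Lef1, the nuclear partner of beta-catenin, gave nearly equal group means at both of its probe sets. At 103628_at the Lef1 signals were 242.0 and 362.5 with DMSO against 229.0 and 376.4 with TCDD. At 103629_g_at they were 69.1 and 90.1 in DMSO and 48.1 and 115.5 in TCDD. Both probe sets were higher on the replicate 2 array than on the replicate 1 array of each group, and the groups overlapped fully. The log2 difference between groups was -0.01 ± 0.27 (SE) at the first, with a 95% interval of -0.60 to 0.57, and -0.05 ± 0.32 with an interval of -0.75 to 0.65 at the second. Differences inside these intervals could not be told from 0 with 2 arrays per group.

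Dkk1 had the lowest log2 difference of the tested members. Dkk1 (99881_at), the antagonist that binds the co-receptors and is itself a target gene of the canonical pathway, read 67.6 and 75.0 with DMSO against 27.0 and 50.5 with TCDD. Both TCDD signals were below both DMSO signals, with TCDD replicate 1 the lowest. The mean signal was 71.3 ± 5.23 for DMSO and 38.8 ± 16.6 for TCDD (SD over 2 arrays). The log2 difference was -0.71 ± 0.27 (SE) with a 95% interval of -1.30 to -0.12, an unadjusted p of 0.0234 and a limma adjusted p of 0.997. The Dkk1 difference was -0.96 between the replicate 1 arrays and -0.45 between the replicate 2 arrays. The Dkk1 probe set passed the filter through its DMSO signals. Without TCDD replicate 1 the Dkk1 difference was -0.39, and without DMSO replicate 2 its mean signal fell below the filter. With an offset of 64 it was -0.41.

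Of the 2 secreted frizzled-related proteins, Sfrp2 was lower on both TCDD arrays and Sfrp1 overlapped between the groups. Sfrp2 (93503_at), the antagonist with the narrowest interval here, read 790.3 and 742.9 with DMSO against 632.7 and 665.0 with TCDD. Both TCDD signals were lower than both DMSO signals, and the arrays of each group lay close together, at a mean of 767 ± 33.5 for DMSO and 649 ± 22.8 for TCDD (SD over 2 arrays). The log2 difference of Sfrp2 was -0.24 ± 0.17 (SE) with a 95% interval of -0.62 to 0.15 and a limma adjusted p of 0.997. Sfrp1 (97997_at), a related antagonist, had 88.2 and 79.4 in DMSO and 94.5 and 80.3 in TCDD. These overlap, and the log2 difference was 0.05 ± 0.22 (SE) with a 95% interval of -0.43 to 0.53.

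**Figure D2:**
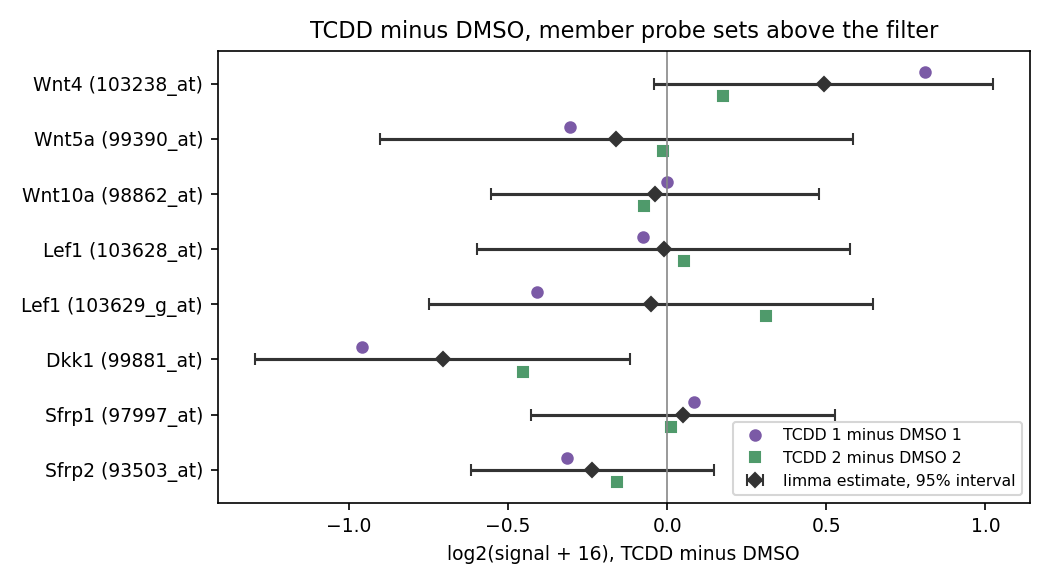
Difference of TCDD minus DMSO in log2(signal + 16) for the 8 member probe sets above the filter, as the limma estimate with its 95% interval (diamonds and bars), between the replicate 1 arrays (circles) and between the replicate 2 arrays (squares). The interval of Dkk1, -1.30 to -0.12, is the 1 that does not cross 0, and the adjusted p of every probe set shown was 0.997.

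Several members differed more between the replicate numbers than between the groups, as the median probe set did. Over all probe sets tested the median absolute log2 difference was 0.217 between replicate numbers in DMSO and 0.214 in TCDD. Between the groups it was 0.147, a difference of 2-array means, which vary less than single arrays. Of the 8 tested member probe sets, 5 were higher on the replicate 2 array than on the replicate 1 array in both groups, beside 30.8% of all probe sets tested, and 1, Sfrp1, was lower in both, beside 28.2%. The 5 were those of Wnt5a, Wnt10a and Dkk1 and both of Lef1, which share a gene. The replicate 1 signals of Wnt5a (53.3 and 40.1) and of Dkk1 (67.6 and 27.0) averaged below the filter of 50. Wnt5a and Dkk1 thus passed it through their replicate 2 signals, and the count and medians given here rest partly on the filter. Wnt5a differed by 0.68 on the log2 scale in DMSO and by 0.98 in TCDD. Lef1 differed by 0.55 and 0.68 at 103628_at and by 0.32 and 1.04 at 103629_g_at. The median replicate 2 minus replicate 1 difference over the 8 was 0.34 in DMSO and 0.46 in TCDD, beside 0.02 and -0.001 for all probe sets. These are a description of 4 arrays, with no test.

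Other measures moved with the replicate number. Skeletal muscle markers had summed signals of 934.2 and 1290.1 on the replicate 1 arrays of DMSO and TCDD and of 408.2 and 476.4 on the replicate 2 arrays. All 5 tested were lower on the replicate 2 array in both groups, but Myod1, Tnnt1 and Myl1 passed the filter through their replicate 1 signals. Ckm, below the filter, was higher on the replicate 2 array in TCDD, at 22.1 against 18.5. Of all probe sets tested, 28.2% were lower on the replicate 2 array in both groups and 30.8% were higher. The bone list, of which Ibsp and Alpl were on the array, had sums of 1192.9 and 1237.5 on the replicate 1 arrays and 701.4 and 658.5 on the replicate 2 arrays. Ibsp was lower on the replicate 2 array, at 479.6 against 1029.2 with DMSO and 446.7 against 1053.6 with TCDD, while Alpl was higher there in both groups. Mesenchymal markers were mostly higher on the replicate 2 arrays, with medians of 0.26 in DMSO and 0.25 in TCDD for replicate 2 minus replicate 1, and 7 of 12 tested were higher there in both groups. The epithelial medians were 0.46 in DMSO and 0.15 in TCDD, with 4 of 8 tested higher on the replicate 2 array in both groups and 1 lower in both. All 4 tested blood genes were higher on the replicate 2 array in both groups. Hbb-bh1, below the filter, was higher there in DMSO but lower in TCDD, at 17.3 against 32.2. The amount of RNA labelled also differed by replicate number. The part of these in the Wnt5a, Wnt10a and Lef1 values was not tested.

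**Figure D3:**
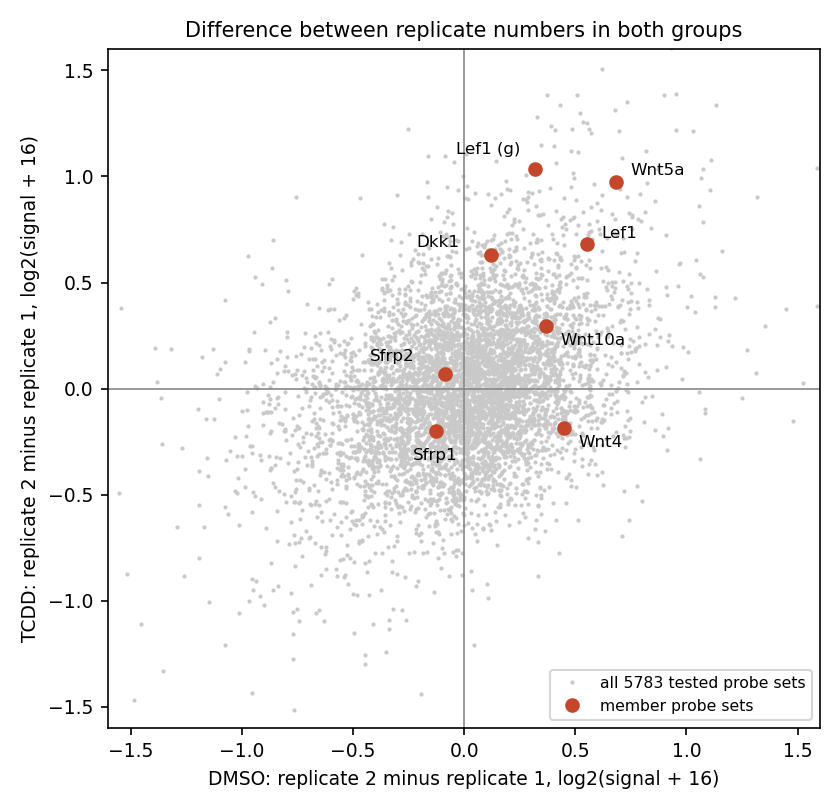
Replicate 2 minus replicate 1 in log2(signal + 16), in DMSO on the horizontal axis and in TCDD on the vertical axis, for the 8 tested member probe sets (red; "Lef1 (g)" is 103629_g_at) and for all 5783 tested probe sets (grey, 23 of them outside the axes). Wnt5a, Wnt10a, Dkk1 and both probe sets of Lef1 lie in the upper right, higher on the replicate 2 array in both groups, and Sfrp1 lies in the lower left.

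The wider pathway, a list of 93 further genes by role, also gave no gene past limma's adjusted p. Of the 67 on the array 44 were tested, at the probe set of highest mean signal for each, and 0 passed; 0 had an unadjusted limma p under 0.05. There were 25 higher and 19 lower in TCDD, with a median log2 difference of 0.04, and the groups did not overlap in 8 higher and 5 lower, beside 15.3% and 14.6% of all probe sets tested. On the replicate 2 array 21 of the 44 were higher in both groups and 11 were lower in both, beside 30.8% and 28.2% of all probe sets tested. Genes named here are up to 3 per role with the smallest p, and none passed the test.

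On the ligand side, 8 other Wnt genes were on the array, all below the filter with signals between 1.1 and 48.1. Wls, which carries Wnt proteins to the cell surface, was the tested gene of this role, at 0.24 ± 0.21 (SE, log2). Among receptors 3 of 8 tested were higher and 5 lower, with a median of -0.16. Fzd8, a Frizzled receptor, read 79.6 and 76.9 with DMSO against 53.2 and 56.2 with TCDD, which do not overlap, and differed by -0.42 ± 0.22 (SE, log2). Fzd1 and Fzd2, also Frizzled receptors, differed by -0.36 ± 0.37 and -0.20 ± 0.22, with overlapping groups. Of 6 other secreted antagonists and modulators 4 were higher, with a median of 0.16. The cell surface proteoglycans Gpc4 and Gpc3 differed by 0.25 and 0.24 and the Dkk1 relative Dkk3 by -0.19.

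Inside the cell, 9 of 13 cytoplasmic genes were higher, with a median of 0.06. Apc, a scaffold of the complex that marks beta-catenin for destruction, read 72.7 and 53.2 with DMSO against 30.0 and 46.9 with TCDD, and differed by -0.54 ± 0.26 (SE, log2). The Apc probe set passed the filter through its DMSO signals. Axin1, another scaffold of that complex, read 144.9 and 130.5 with DMSO against 183.5 and 178.8 with TCDD, and differed by 0.36 ± 0.20 (SE, log2). The groups did not overlap for either gene. Dvl1, which relays the Frizzled signal, differed by -0.22. Among nuclear partners 5 of 8 were higher, with a median of 0.03. Ctnnbip1, an inhibitor of beta-catenin, differed by -0.34, the coactivator Crebbp by 0.26 and the corepressor Tle1 by 0.23, all with overlapping groups. Ctnnbip1 read 134.4 and 75.9 with DMSO and 76.9 and 76.8 with TCDD, so DMSO replicate 1 stood above the other arrays.

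Of 8 tested genes listed as targets, 3 were higher and 5 lower, with a median of -0.04. Fgf4, a growth factor of the enamel knot that is a known target of Lef1 in the tooth, read 158.6 and 120.5 with DMSO against 94.7 and 95.6 with TCDD. The groups of Fgf4 did not overlap, and its log2 difference was -0.47 ± 0.22 (SE) with an unadjusted limma p of 0.0517 and an adjusted p of 0.997. Myc, a growth regulator, differed by 0.34 ± 0.26, and Ccnd1, which encodes cyclin D1, by -0.14 at 94232_at and -0.17 at 94231_at. The groups overlapped for both genes. Myc read 33.4 and 55.2 with DMSO and 66.8 and 52.4 with TCDD, and passed the filter through its TCDD signals. Axin2, a feedback target of the canonical pathway that is named after its values were seen, lay below the filter at 17.9 and 25.4 in DMSO and 17.1 and 25.8 in TCDD.

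**Figure D4:**
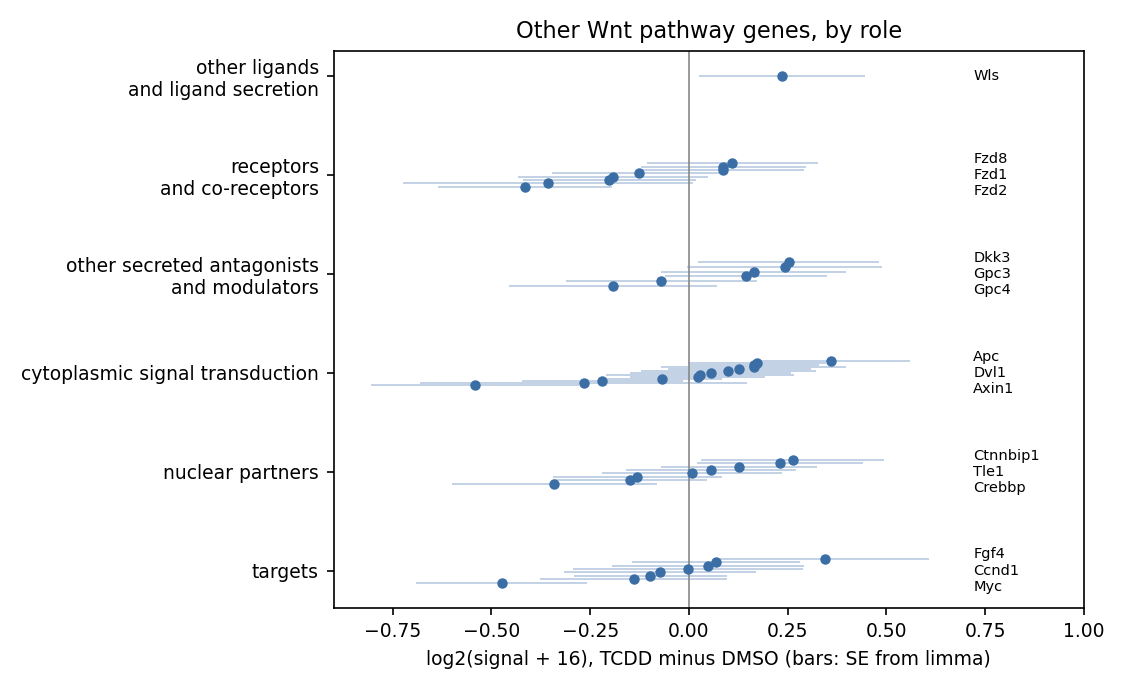
Difference of TCDD minus DMSO in log2(signal + 16) for the 44 tested genes of the wider Wnt pathway by role, 1 point per gene with its standard error from limma, and the names of up to 3 genes per role with the smallest p at the right, from lowest to highest difference. The points lie between -0.54 (Apc) and 0.36 (Axin1).

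Summed macrophage markers were higher on both TCDD arrays, at 865.6 and 853.0, than on the DMSO arrays, at 664.0 and 626.8. All 7 tested were higher, 3 had an unadjusted limma p under 0.05, beside 2.59% of all probe sets tested, and 0 passed its adjusted p. Adgre1, a defining macrophage gene below the filter, went the other way. It read 8.5 and 18.9 with DMSO and 6.1 and 10.2 with TCDD, which overlap. Mrc1, also below the filter, was higher on both TCDD arrays. The part of these cells in the Dkk1, Sfrp2 and Wnt4 values was not tested. The sums of the cartilage, blood and nerve lists overlapped between the groups. The endothelial sums were 734.3 and 687.5 with DMSO against 685.4 and 670.2 with TCDD, which did not overlap by a narrow margin. Of the 5 endothelial genes tested 2 were higher and 3 lower. The groups did not overlap in 1 higher, Emcn, and 1 lower, Pecam1, beside 15.3% and 14.6% of all probe sets tested. Pecam1 read 107.0 and 49.8 with DMSO against 42.5 and 43.3 with TCDD, and passed the filter through its DMSO signals. So did Tie1, another of the lower genes.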

How the data were processed

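RNA of 4 pools of molar explants, 2 per group, was measured on murine U74v2A arrays, 1 array each. Signals were computed and scaled to a target of 100 with Microarray Suite 5.0, per the labels, and the deposited intensity values are MAS5 signals on a linear scale. Of the 49952 deposited values 18515 (37.1%) held day serials between 38718 and 38990, where a spreadsheet had read a signal as a day and month. They were turned back into day.month. After that, trimming 2% of the values from either end left a mean of 100.05 on each array. Of the 52 member values 15 were repaired, all in Wnt10b and Wnt11.

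Gene names came from the platform's annotation through Entrez IDs and the RefSeq gene table of GRCm38.p6. The files name no build. limma 3.58.1 in R 4.3.3 (lmFit, eBayes with a trend) was fitted on log2(signal + 16) over 5783 probe sets, without 66 controls. Log2 differences on this scale understate changes of dim genes. An exact permutation test was not run, as 2 arrays against 2 cannot reach 0.05. The members, gene lists, tests and alternatives (offset, filter, normalization, repair, variance trend, replicate block, each array left out) were chosen with earlier results of these data known. Named are all members and up to 3 tested genes of each role with the smallest p, and markers outside the brightest 2 of epithelium and mesenchyme were named after their values were seen. Promoters came from RefSeq.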

Additional observations from a re-analysis of the deposited data

How the results depend on the processing

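With 2 arrays per group the precision is limited by their number. Under all 12 alternatives, including each array left out, 0 member probe sets and 0 genes of the wider Wnt pathway passed limma's adjusted p. Over all probe sets the count of 4 became 2 without the filter and 32 with the replicate block, and between 2 and 5 with 1 array left out. Leaving out DMSO replicate 1 gave 2, and so did leaving out TCDD replicate 2. The labels do not say that the numbers pair the samples. The replicate 1 minus replicate 2 differences in DMSO and TCDD correlated at 0.381 across 5783 probe sets, and with the replicate block Dkk1 had a limma adjusted p of 0.150 and Wnt4 of 0.436. Dkk1, Wnt4 and Sfrp2 kept their direction in every alternative in which they were measured, but most alternatives could not have changed it. Where the groups do not overlap, neither another offset nor leaving out 1 array can reverse the sign. The filter, repair, variance trend and replicate block left these 3 estimates as they were. Quantile normalization could have changed the sign, and gave -0.64 for Dkk1, 0.54 for Wnt4 and -0.29 for Sfrp2. With 1 array left out the log2 differences ranged from -1.02 to -0.39 for Dkk1 (3 of the 4 arrays, as it fell below the filter without DMSO replicate 2), 0.27 to 0.72 for Wnt4 and -0.28 to -0.19 for Sfrp2. Of 136 member values under an alternative 14 changed sign, and the cause was not tested. With 1 array left out the range crossed 0 for Wnt5a (-0.65 to 0.33), Wnt10a (-0.22 to 0.15), Wnt6 (-0.032 to 0.16), Sfrp1 (-0.050 to 0.15), Lef1 (-0.35 to 0.33 at 103628_at and -0.57 to 0.47 at 103629_g_at) and Wnt10b at 92752_r_at (-0.38 to 0.15). Wnt10b also changed sign to 0.036 at 92752_r_at with quantile normalization, and to 0.10 at 92750_s_at with every repaired value set to 16, where 3 of its 4 values were replaced. That setting left no difference at the other Wnt10b probe sets or at Wnt11, whose values were all replaced.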
